A study of Homo sapiens with 6 samples.

Results

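Cancer-testis antigens other than PRAME were followed through an siRNA and retinoic acid experiment in K562, a human cell line from a chronic myeloid leukaemia. The probe sets were those for which each annotated symbol begins with MAGEA, MAGEB, MAGEC, GAGE, PAGE, XAGE, SSX, CTAG, SPANX or CT45, plus the probe set of CTCFL. This rule took 71 of 54613 non-control probe sets on a human expression microarray. Of these, 60 carry the antigen families, with 67 gene symbols, and 11 match by letters alone (SSX2IP, the CTAGE genes and the noncoding SPANXA2-OT1). These 11 are described separately. Cells were nucleofected with an siRNA that the labels call RNAi8 or with scrambled RNA, each at up to 200 nM, and 24 hours later received all-trans retinoic acid (ATRA) or the DMSO control. Experiment 1 and experiment 3 gave an siRNA array and a scrambled array under ATRA, and experiment 2 gave an siRNA array and a scrambled array under DMSO. There were thus 6 arrays from 3 independent experiments, and no group of untransfected cells was analysed here. All cells belong to 1 line, and the arrays read bulk RNA, in which fewer cells with a transcript and less transcript per cell cannot be told apart.

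Cancer-testis antigens are proteins made in male germ cells, and in some cases placenta, and silent in most other adult tissues. Many tumours express them, and T cells can recognise their peptides. Most lie on the X chromosome in families of near-identical copies. DNA methylation at CG dinucleotides of their promoters is a known part of their silencing in somatic cells, and demethylating drugs induce several of them. PRAME is itself a cancer-testis antigen and a repressor of retinoic acid receptor signalling. Which of the other antigens K562 cells express, and whether their levels depend on the siRNA or on ATRA, was the question here.

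Of the 67 antigen symbols, 64 are annotated to the X chromosome and CTCFL to chromosome 20, in the RefSeq gene table. The remaining symbols, GAGE4 and GAGE7, were not matched in it. RefSeq promoter windows on the GRCh38.p14 build, each 300 bases long (250 before to 50 after the start), were matched for 52 of the 67 symbols. A few of these windows are printed 5′ to 3′ on the strand of the gene, with each CG dinucleotide in capitals, because they show how the CG content of such promoters ranges from gene to gene, among bright and dim antigens.
MAGEA3 (chrX:152698544-152698843, plus strand): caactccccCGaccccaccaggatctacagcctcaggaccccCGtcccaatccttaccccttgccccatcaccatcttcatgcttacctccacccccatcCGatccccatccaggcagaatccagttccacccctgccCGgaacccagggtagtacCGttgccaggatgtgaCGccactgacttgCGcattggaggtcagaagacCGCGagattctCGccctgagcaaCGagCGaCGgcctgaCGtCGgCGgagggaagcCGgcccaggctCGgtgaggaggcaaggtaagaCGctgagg
MAGEB2 (chrX:30215313-30215612, plus strand): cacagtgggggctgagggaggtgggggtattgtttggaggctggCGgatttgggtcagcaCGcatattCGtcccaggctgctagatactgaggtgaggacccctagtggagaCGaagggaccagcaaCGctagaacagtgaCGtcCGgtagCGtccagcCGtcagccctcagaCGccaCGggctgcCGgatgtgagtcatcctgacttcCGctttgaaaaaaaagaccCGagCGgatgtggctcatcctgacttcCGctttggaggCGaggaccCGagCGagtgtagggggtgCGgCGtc
MAGEB3 (chrX:30230407-30230706, plus strand): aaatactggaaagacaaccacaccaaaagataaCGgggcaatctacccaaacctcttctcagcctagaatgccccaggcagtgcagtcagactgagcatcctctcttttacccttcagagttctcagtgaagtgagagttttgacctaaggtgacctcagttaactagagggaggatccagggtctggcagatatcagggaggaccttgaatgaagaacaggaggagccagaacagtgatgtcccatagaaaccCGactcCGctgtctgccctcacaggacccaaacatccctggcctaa
MAGEA11 (chrX:149711810-149712109, plus strand): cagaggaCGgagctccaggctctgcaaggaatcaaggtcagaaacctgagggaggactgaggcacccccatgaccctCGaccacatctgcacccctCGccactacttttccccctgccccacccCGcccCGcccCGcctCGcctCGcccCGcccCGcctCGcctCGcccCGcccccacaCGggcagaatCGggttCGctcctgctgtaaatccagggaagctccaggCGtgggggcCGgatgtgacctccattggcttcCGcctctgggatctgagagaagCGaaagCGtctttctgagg

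The MAGEA3 window holds 19 CG dinucleotides and is identical over all 300 bases to that of MAGEA6 at chrX:152769640-152769939 on the minus strand. MAGEA2 and MAGEA2B, MAGEA9 and MAGEA9B, XAGE1A and XAGE1B, and SSX2 and SSX2B also share 1 identical window each, which makes 5 such pairs. MAGEA2, SSX2, XAGE1A and XAGE1B have further windows at other starts, which are not shared within the pair. Among 11 GAGE genes with a window, 8 share 1 sequence. The MAGEB2 window holds 21 CG dinucleotides and that of MAGEB3, a neighbour on the same strand, holds 3. At least 19 were found in 42.9% of the 35116 windows of all genes, at least 21 in 39.5%, and 3 or fewer in 24.5%. CG was the only motif searched. It reads the same on both strands, and its count describes letters of the reference, not methylation in these cells.

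Expression was measured as log2 values after the RMA algorithm, with array medians between 5.96 and 6.02 and a median over all probe sets of 6.00. A probe set with a mean over the 6 arrays at or above 6.00 is called bright and any other dim, since a dim signal was not shown to be above background. Bright describes only this position among all probe sets. No detection call was made, so a bright signal near 6.00 was not shown to be above background either. A level is a signal and not an amount of transcript, because probes differ in how strongly they bind, so the order of probe sets by level says nothing of the order of their transcripts. In experiment 3 the actin 3' probe set exceeded the 5' one by 2.98 with the siRNA and 3.36 with the scrambled RNA, against 0.63 to 0.92 on the other 4 arrays. The GAPDH gap was 1.20 and 0.74, against 0.03 to 0.08. Across probe sets, its arrays correlated with those of experiments 1 and 2 at 0.979 to 0.982, whereas within experiments 1 and 2 each pair of arrays correlated at 0.996 or above. Values are therefore given by experiment, and the part of these gaps in a result was not tested except where a value without experiment 3 stands beside it. PRAME, the named target of the series, had 12.13, 12.14 and 12.10 in the siRNA arrays of experiments 1, 2 and 3, against 13.00, 12.99 and 12.70 in the scrambled arrays. With the experiment as a block it passed the threshold (limma, difference -0.78, SE 0.06, adjusted p = 0.0435) but without it the adjusted p was 1.

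The identity of the cells was read from marker lists, with each gene read from its probe set of highest mean. Counting every probe set instead, 26 of 31 were bright for K562 markers and 1 of 13 for male germ cell markers. The counts were 5 of 15 for lymphoid, 6 of 25 for stromal and 4 of 11 for epithelial markers. All 13 measured erythroid and leukaemic K562 markers were bright, with a median level of 9.66, among them the embryonic globin HBZ at 12.03 and the transferrin receptor TFRC at 13.34. Of the male germ cell markers, 1 of 11 was bright, with a median of 4.96. The germ cell helicase DDX4 (3.67), the RNA-binding protein DAZL (3.13) and the meiotic protein SYCP3 (3.61) were dim, and the bright one was the protamine PRM1 (6.58). Lymphoid markers were bright for 3 of 9 genes, stromal markers for 3 of 7 and epithelial markers for 3 of 5. The highest were CD79B at 6.70, THY1 at 6.61 and MUC1 at 7.53, so a bright signal alone does not show expression. The median of these 3 lists stayed between 5.36 and 6.30 on each array.

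Of the 60 antigen probe sets, 38 were bright (63.3%, against 50% of all probe sets), and 21 (35.0%) lay at or above the 75th percentile of all probe sets, 7.44. The bright ones were spread over MAGEA (9 of 11), MAGEB (2 of 7), MAGEC (2 of 4), GAGE (4 of 5), PAGE (1 of 3), XAGE (3 of 4), SSX (10 of 14), CTAG (4 of 5), CT45 (2 of 2) and CTCFL. None of the 4 SPANX probe sets was bright (4.83 to 5.78), and these encode proteins of the sperm nucleus. The kind of probe set moved with this count. Of probe sets named _x_at, whose probes can bind unrelated transcripts, 22 of 25 were bright (88.0%), and over the whole array such sets were bright in 68.3% of 4207 cases. Of those named plainly _at, 13 of 28 were bright (46.4%), and the share of such sets over the whole array was not counted. Taking only plain _at sets with a single symbol left 9 of 24 (37.5%), for MAGEB2, CTCFL, MAGEC1, MAGEB1, MAGEA4, MAGEA8, XAGE3, PAGE5 and the transcribed pseudogene XAGE-4.

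**Figure D1:**
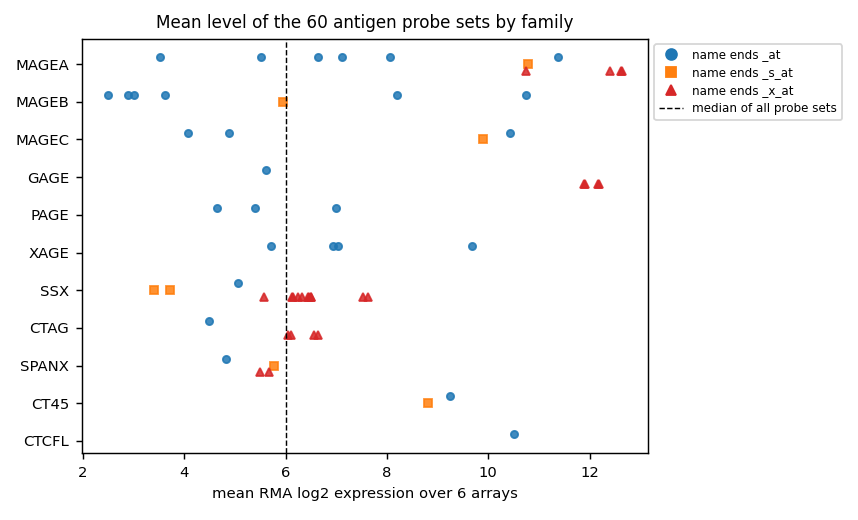
Mean RMA log2 expression over 6 arrays (horizontal axis) of the 60 antigen probe sets by family (vertical axis), with the marker showing how the probe set name ends and the dashed line the median of all probe sets, 6.00. MAGEA, MAGEB and MAGEC hold both bright and dim probe sets, the 4 shared GAGE probe sets lie near 12, most SSX and CTAG probe sets lie close to the line, and the SPANX probe sets lie below it.

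The MAGEA proteins are adaptors that bind RING ubiquitin ligases, and MAGEA3 and MAGEA6 act with the ligase TRIM28. The MAGEA6 probe set had 12.59, 12.56 and 12.86 in the siRNA arrays of experiments 1, 2 and 3, against 12.56, 12.63 and 12.68 in the scrambled arrays. The probe set shared by MAGEA6 and MAGEA3 had 12.55, 12.58 and 12.78 with the siRNA, against 12.57, 12.59 and 12.62 with the scrambled RNA. MAGEA12, another member of the cluster, had 12.40, 12.33 and 12.56 with the siRNA and 12.36, 12.38 and 12.42 with the scrambled RNA. In all 3 of these probe sets the siRNA array of experiment 3 was the highest and the 2 groups overlapped. MAGEA2 and MAGEA2B, proteins reported to bind p53, share their probe sets. Probe set 214603_at read 11.41, 11.41 and 11.38 with the siRNA, against 11.37, 11.43 and 11.28 with the scrambled RNA. Probe set 1553830_s_at read 10.83, 10.93 and 10.79 with the siRNA, against 10.81, 10.95 and 10.39 with the scrambled RNA, so that the scrambled array of experiment 3 stood lowest. MAGEA1, the antigen with which the family was found in melanoma, had 10.77, 10.79 and 10.71 with the siRNA and 10.71, 10.83 and 10.70 with the scrambled RNA. MAGEA4, a target of engineered T cells in synovial sarcoma, had 8.06, 8.00 and 8.13 with the siRNA and 7.99, 8.10 and 8.03 with the scrambled RNA. For MAGEA1 and MAGEA4 the groups overlapped. MAGEA8 had 7.29, 6.96 and 7.40 with the siRNA, against 7.01, 6.95 and 7.08 with the scrambled RNA, with the siRNA array higher in each experiment although the groups overlapped. A probe set shared by MAGEA9 and MAGEA9B was bright, and the probe sets of MAGEA10 (5.52) and MAGEA11 (3.52) were dim.

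In the MAGEB and MAGEC families a few genes were bright among dim ones. MAGEB2, which in germ cells limits the stress granule protein G3BP1, had 10.93, 10.87 and 10.43 with the siRNA, against 10.94, 10.92 and 10.40 with the scrambled RNA. MAGEB1 had 8.37, 8.27 and 7.96 with the siRNA, against 8.38, 8.21 and 7.98 with the scrambled RNA. In both genes the arrays of experiment 3 were lowest whichever RNA was given. The other 5 MAGEB probe sets, for MAGEB3, MAGEB4, MAGEB6 and MAGEB18, were dim, with means from 2.49 to 5.96. MAGEC1, an antigen common in myeloma, had 10.34, 10.20 and 10.74 with the siRNA and 10.25, 10.25 and 10.77 with the scrambled RNA, with experiment 3 highest. MAGEC2, which acts on TRIM28 and p53, had 9.94, 9.87 and 10.06 with the siRNA, against 9.80, 9.83 and 9.86 with the scrambled RNA. Of the 60 antigen probe sets it was the only one whose siRNA arrays all lay above its scrambled arrays (1.67%, against 2.07% of all probe sets). A second MAGEC2 probe set, 215932_at, was dim at 4.88, so the 2 probe sets of this gene disagree, and MAGEC3 was dim at 4.08.

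The GAGE, PAGE and XAGE proteins are small, acidic and largely without fixed structure. There are 4 GAGE probe sets that match between 5 and 13 symbols each, overlap in the genes they match, and are therefore readings of the family and not of a gene. Probe set 207086_x_at read 12.18, 12.25 and 11.96 with the siRNA, against 12.23, 12.24 and 12.18 with the scrambled RNA. Probe set 208155_x_at read 12.17, 12.22 and 11.94 with the siRNA, against 12.21, 12.24 and 12.17 with the scrambled RNA. Both showed their lowest value in the siRNA array of experiment 3. Probe set 206640_x_at read 11.93, 11.96 and 11.67 with the siRNA, against 11.98, 12.00 and 11.92 with the scrambled RNA. Probe set 208235_x_at read 11.92, 11.94 and 11.68 with the siRNA, against 11.96, 11.97 and 11.89 with the scrambled RNA, in the same pattern. A probe set annotated to GAGE1 alone was dim at 5.61. XAGE1A and XAGE1B, antigens of lung adenocarcinoma, had 9.74, 9.80 and 9.33 with the siRNA and 9.75, 9.83 and 9.61 with the scrambled RNA. XAGE3 had 7.02, 7.16 and 6.78 with the siRNA, against 7.17, 7.15 and 6.94 with the scrambled RNA. For both, experiment 3 was lowest. PAGE5 had 6.95, 7.10 and 6.96 with the siRNA, against 7.00, 7.08 and 6.93 with the scrambled RNA, a range within which the groups overlapped. PAGE1, PAGE4 and XAGE2 were dim, between 4.65 and 5.71.

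SSX proteins are nuclear repressors, and SSX1 or SSX2 is fused to SS18 in synovial sarcoma. SSX2 and SSX2B share 3 bright probe sets of their own. Probe set 210497_x_at read 7.71, 7.87 and 7.12 with the siRNA, against 7.94, 7.95 and 7.19 with the scrambled RNA. Probe set 216471_x_at read 7.63, 7.74 and 6.84 with the siRNA, against 7.79, 7.78 and 7.43 with the scrambled RNA. In both, the siRNA array was below the scrambled array of each experiment, and experiment 3 was lowest. The third, 207493_x_at, had a mean of 6.50. A further probe set with SSX2B among its symbols was dim. All 10 bright SSX probe sets are of the _x_at kind, and for SSX1 (6.14 against 3.72) and SSX4 (6.45 and 6.33 against 3.41) a probe set of another kind was dim. CTAG1A and CTAG1B encode NY-ESO-1 and CTAG2 encodes LAGE-1, both vaccine targets. The bright CTAG probe sets lay between 6.05 and 6.64 and are also of the _x_at kind, while the plain CTAG2 probe set had 4.50.

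CT45 genes, of which 9 share both probe sets, were bright. Probe set 235700_at read 9.24, 9.25 and 9.15 with the siRNA, against 9.21, 9.39 and 9.23 with the scrambled RNA. Probe set 1567912_s_at read 8.85, 8.87 and 8.57 with the siRNA, against 8.87, 9.07 and 8.67 with the scrambled RNA. The scrambled array of experiment 2 was the highest in both. CTCFL, a germ cell paralogue of the chromatin insulator protein CTCF, had 10.53, 10.24 and 10.76 with the siRNA, against 10.56, 10.38 and 10.61 with the scrambled RNA. Its lowest arrays were those of experiment 2 and the groups overlapped.

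**Figure D2:**
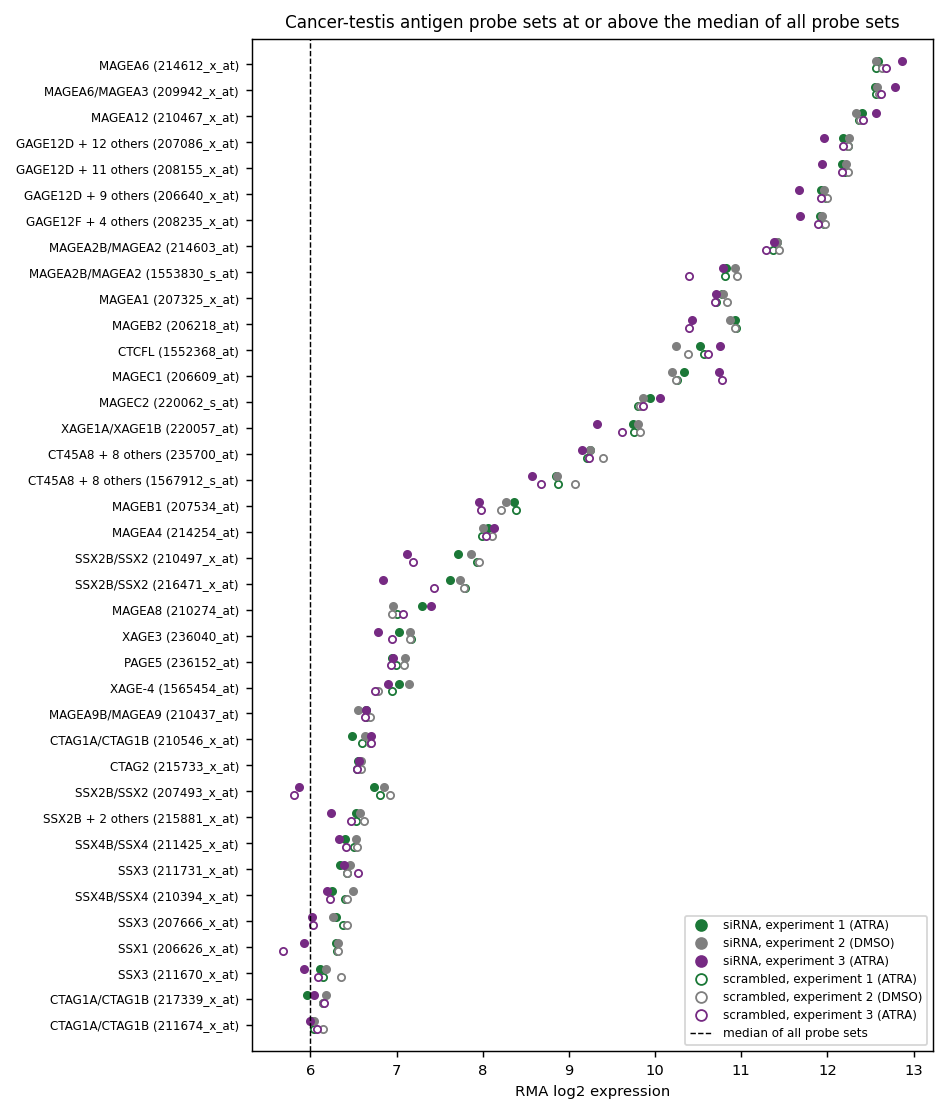
RMA log2 expression (horizontal axis) of the 38 bright antigen probe sets (vertical axis, sorted by mean level), with filled points for the siRNA arrays, open points for the scrambled arrays, colour for the experiment and a dashed line at the median of all probe sets. In most probe sets the 6 arrays lie close together, and the widest spreads are those of SSX2 probe sets, where experiment 3 lies to the left.

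Over the 60 antigen probe sets the range from the lowest to the highest of the 6 arrays had a median of 0.28, against 0.33 over all probe sets, and the widest was 1.12 for the SSX2 probe set 207493_x_at. Within the 4 arrays of experiments 1 and 2 the median range was 0.14, against 0.18 over all probe sets. CG content of the promoter windows is given as a description, with the window of most CG taken for each gene. The 31 genes with only bright probe sets had a median of 13 CG dinucleotides (8 to 21), the 15 genes with only dim ones 7 (2 to 21), and 6 genes with both 10. Over all genes, taken the same way, the median was 16. MAGEA11, dim at 3.52, has 21 in the window printed above, as many as the bright MAGEB2. Copies of a family share much of their sequence, so these genes are not independent of each other.

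The siRNA was compared with scrambled RNA over all 6 arrays. No antigen probe set passed the test. By limma with treatment as a covariate, 0 of 71 members had an adjusted p under 0.05, against 0.0% of all probe sets, and 1 of 71 had an unadjusted p under 0.05, against 1.2%. In limma with the replicate block, which sets the arrays of an experiment against each other, 0 of 71 passed, against 0.00183% of all probe sets, which is PRAME alone. There, 4 of 71 had an unadjusted p under 0.05, against 5.27%. The median difference over the 60 antigen probe sets was -0.03, against 0.00 over all probe sets. In the blocked fit the 95% interval of each of the 38 bright antigens lay within -0.50 to 0.38, and 34 of the 38 intervals held 0. An absolute change of 0.5 is 1.41-fold. Without the block, 33 of 38 intervals lay within 0.5 of 0 and all 38 within 1, a 2-fold change.

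The antigens with the smallest p in the fit without the block, which ignores the pairing, are given by their values. Some antigens from the blocked fit are added. MAGEB18, a dim signal, had 2.55, 2.59 and 2.55 with the siRNA, against 2.34, 2.55 and 2.37 with the scrambled RNA (limma, difference 0.14, SE 0.05, adjusted p = 1). MAGEA8 differed by 0.28, 0.01 and 0.32 in experiments 1, 2 and 3 (limma, mean 0.21, SE 0.10, adjusted p = 1, and with the replicate block SE 0.08, 95% interval 0.03 to 0.38, adjusted p = 0.872). Both had a higher value with the siRNA in 3 of 3 experiments, and neither passed. XAGE-4 had 7.03, 7.15 and 6.90 with the siRNA, against 6.94, 6.79 and 6.75 with the scrambled RNA (limma, mean difference 0.20, SE 0.11, adjusted p = 1). With the replicate block its SE was 0.07 and its 95% interval 0.03 to 0.37 (limma, adjusted p = 0.872). MAGEC2 differed by 0.14, 0.04 and 0.21 (limma with the block, mean 0.13, SE 0.05, adjusted p = 0.872). On the lower side the smallest p without the block belonged to the dim MAGEB3. It had 3.55, 3.65 and 3.52 with the siRNA, against 3.73, 3.74 and 3.57 with the scrambled RNA (limma, difference -0.11, SE 0.06, adjusted p = 1). The SSX3 probe set 211670_x_at had 6.12, 6.18 and 5.92 with the siRNA, against 6.15, 6.35 and 6.09 with the scrambled RNA. The MAGEB4 probe set 207581_s_at, just below the median of all probe sets, had 5.80, 6.00 and 5.90 with the siRNA, against 6.06, 5.98 and 6.00 with the scrambled RNA. The SSX2 probe set 216471_x_at had the widest mean difference among the antigens, -0.27, from -0.16, -0.04 and -0.59 (limma with the block, SE 0.10, adjusted p = 0.872), so that experiment 3 supplied most of it. With the block this probe set, and not MAGEB3, had the smallest p on the lower side. The adjusted p of MAGEA8, XAGE-4 and MAGEC2 ran from 0.771 to 1 over all settings.

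Directions were counted without a test. The siRNA array lay below the scrambled array in all 3 experiments for 14 of 60 antigen probe sets (23.3%, against 11.3% of all probe sets) and above it in all 3 for 5 (8.33%, against 12.3%). The 14 were 5 SSX, 3 shared GAGE, 2 CTAG and 2 MAGEB probe sets and 1 each of XAGE and CT45, and the 5 were MAGEC2, MAGEA8, XAGE-4, GAGE1 and MAGEB18. Several of the 14 match the same transcripts, and their mean differences lay between -0.27 and -0.03. With an experiment left out, the count lower in both remaining ones was 18 of 60 without experiment 1 (30%, against 23.9% of all probe sets), 26 without experiment 2 (43.3%, against 22.3%) and 21 without experiment 3 (35.0%, against 20.3%). With non-overlapping groups there was 1 antigen above (1.67%, against 2.07% of all probe sets) and 0 below (against 1.65%).

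The families did not move alike between experiments. In experiment 3, all 11 MAGEA probe sets were higher with the siRNA, by 0.0049 to 0.40 with a median of 0.10, whereas 26656 of all 54613 probe sets were. In experiment 2, 8 of the same 11 were lower, and in experiment 1, 7 were higher. The 4 shared GAGE probe sets differed by -0.25 to -0.21 in experiment 3 and by -0.06 to 0.01 in the other experiments. These family patterns were picked after their values were seen, and experiment 3 is the one with the wider control gaps. In both families some probe sets match the same genes, so they are not separate readings.

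**Figure D3:**
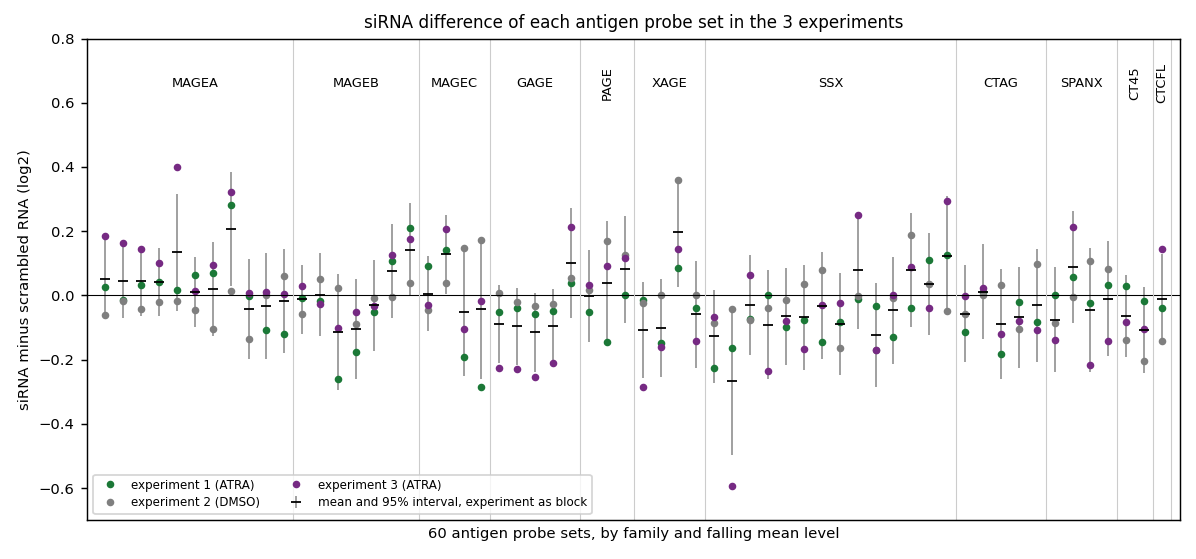
siRNA minus scrambled RNA in log2 units (vertical axis) for each of the 60 antigen probe sets (horizontal axis, by family and falling mean level), with coloured points for the 3 experiments and black bars with grey lines for the mean and its 95% interval from limma with the experiment as a block. Most intervals cross 0, all lie within 0.5 of it, and the points furthest from 0 come from experiment 3, at -0.59 for an SSX2 probe set and 0.40 for a MAGEA2 probe set.

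For ATRA against DMSO the 2 arrays of each experiment were averaged, which left 2 ATRA experiments against 1 DMSO experiment. Treatment and experiment cannot be told apart in the DMSO group, which is experiment 2 alone. No antigen probe set passed this test either. By limma, 0 of 71 members had an adjusted p under 0.05, against 0.0% of all probe sets, and 1 of 71 had an unadjusted p under 0.05, against 0.835%. A limma fit to the 6 arrays, in which experiment was a random block, also gave 0 of 71, against 0.00366% of all probe sets. The median difference over the 60 antigens was -0.08, against -0.01 over all probe sets. The intervals were wide. For the 38 bright antigens they reached from -2.14 to 1.36, with 27 of 38 within 1 of 0, while the intervals of the other 11 reached past a 2-fold difference.

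Directions leaned to lower values under ATRA for most families. Both ATRA experiments lay below the DMSO experiment for 38 of 60 antigen probe sets (63.3%, against 36.0% of all probe sets) and above it for 9 (15.0%, against 29.9%). All 4 ATRA arrays lay below both DMSO arrays for 21 of 60 (35.0%, against 11.8%) and above both for 3 (5.0%, against 11.1%). The 3 were CTCFL, MAGEC1 and MAGEA8. By family, the 38 held 12 of 14 SSX, 4 of 5 GAGE, 4 of 5 CTAG, 4 of 7 MAGEB, 3 of 11 MAGEA, 3 of 4 XAGE, 3 of 4 SPANX, 3 of 3 PAGE and 2 of 2 CT45 probe sets, and none of MAGEC or CTCFL. Centring each array on its median left 33 of 60 (55.0%, against 29.4% of all probe sets), with 10 of 14 SSX. Many of these probe sets match the same transcripts, and 14 of the 38 are dim. Without experiment 3, experiment 1 lay below experiment 2 for 46 of 60 (76.7%, against 51.7% of all probe sets). Without experiment 1, experiment 3 lay below experiment 2 for 43 of 60 (71.7%, against 54.0%).

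The size of the differences depended on the experiment. The SSX2 probe set 207493_x_at averaged 6.78 in experiment 1 and 5.84 in experiment 3 under ATRA, against 6.89 in experiment 2 under DMSO (limma, difference -0.58, SE 0.49, adjusted p = 0.995). The SSX2 probe set 210497_x_at averaged 7.82 and 7.15 under ATRA, against 7.91 under DMSO, and 216471_x_at 7.71 and 7.13, against 7.76. Across these 3 probe sets experiment 1 differed from DMSO by -0.11 to -0.05, and most of the distance came from experiment 3. MAGEB2 averaged 10.93 and 10.41 in the ATRA experiments, against 10.89 under DMSO. XAGE1A and XAGE1B averaged 9.75 and 9.47 under ATRA, against 9.81 under DMSO. On the other side, CTCFL averaged 10.54 and 10.68 under ATRA, against 10.31 under DMSO (limma, difference 0.31, SE 0.24, adjusted p = 0.995). MAGEC1 averaged 10.29 and 10.76 under ATRA, against 10.22 under DMSO, and MAGEA8 7.15 and 7.24, against 6.95. For CTCFL and MAGEA8 the distance of experiment 1 from DMSO, 0.24 and 0.20, was of the order of that of experiment 3, 0.38 and 0.29. The MAGEA6 probe set averaged 12.58 and 12.77, against 12.60, and MAGEA1 10.74 and 10.71, against 10.81.

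Experiment 3 alone against experiment 2, with the spread between arrays within experiments, gave 11 of 60 antigens past the threshold (18.3%, against 25.4% of all probe sets), and experiment 1 alone against experiment 2 gave 0 of 60, against 0.178%. The 11 were lower in experiment 3 for MAGEB2, XAGE1A and XAGE1B, 1 CT45, 3 SSX2, 1 SSX3 and the SSX1 probe set, and higher for CTCFL, MAGEC1 and GAGE1. This counts 13872 probe sets in all, in the experiment with the wider control gaps, and the part of RNA quality in it was not tested. Both arrays of experiment 3 lay below the other 4 for 20 of 60 antigens (33.3%, against 22.4% of all probe sets), of which 10 were SSX. They lay above the other 4 for 8 (13.3%, against 22.7%). Among bright probe sets, both lay below for 16 of 38 antigens, against 7960 of 27307 over the array.

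The smallest p values under ATRA fell mostly on dim signals. The plain CTAG2 probe set had 4.42 and 4.40 in the ATRA experiments, against 4.67 under DMSO (limma, difference -0.26, SE 0.07, adjusted p = 0.995). PAGE4, a prostate-associated antigen, had 5.32 and 5.35, against 5.53, and the SPANXA2 and SPANXA1 probe set 5.61 and 5.59, against 5.82. All 3 stayed under 6.00 in every experiment.

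**Figure D4:**
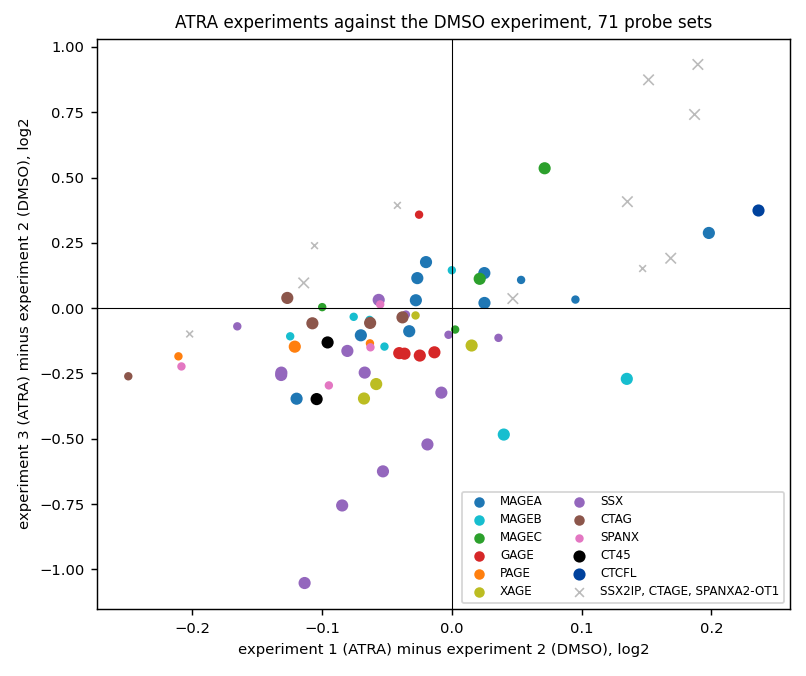
Experiment 3 (ATRA) minus experiment 2 (DMSO) on the vertical axis against experiment 1 (ATRA) minus experiment 2 (DMSO) on the horizontal axis, in log2 units and on different scales, for the 71 probe sets, with colour for the family, large points for bright and small points for dim probe sets, and crosses for symbols that match by letters alone. Both axes share the DMSO experiment, so points can line up through it. The 38 antigens at lower left lie below DMSO in both ATRA experiments, and the vertical spread, down to -1.05 for SSX2 and up to 0.93 for SSX2IP, is wider than the horizontal one.

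Whether the siRNA difference depended on ATRA was tested as the siRNA difference under ATRA minus that under DMSO. By limma, 0 of 71 members had an adjusted p under 0.05, against 0.0% of all probe sets, and 0 of 71 had an unadjusted p under 0.05, against 1.29%. With the replicate block the counts were also 0 of 71, against 0.0%, and 0 of 71, against 2.8%. The siRNA difference of both ATRA experiments lay above that of the DMSO experiment for 23 of 60 antigens (38.3%, against 33.3% of all probe sets) and below it for 24 (40.0%, against 31.4%). Bright antigens had intervals from -2.40 to 2.54 without the block and from -0.83 to 0.65 with it. For MAGEA8 the siRNA difference was 0.28 and 0.32 under ATRA, against 0.01 under DMSO (limma, difference 0.29, SE 0.20, adjusted p = 1). The SSX4 probe set 208586_s_at, a dim signal, had siRNA differences of 0.13 and 0.29 under ATRA, against -0.05 under DMSO. For MAGEB18 they were 0.21 and 0.18, against 0.04. On the lower side the dim MAGEC2 probe set had -0.19 and -0.11 under ATRA, against 0.15 under DMSO, and the dim CTAG2 probe set -0.08 and -0.11, against 0.10. None of these passed.

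SSX2IP shares letters with the SSX family because its protein was found as an SSX2 partner, and it works at centrosomes and cell junctions in ordinary cells. Its 6 probe sets were bright, with means from 8.02 to 9.88. Probe set 203016_s_at read 9.99, 9.85 and 9.96 with the siRNA, against 9.80, 9.85 and 9.81 with the scrambled RNA (limma, difference 0.11, SE 0.09, adjusted p = 1). Probe set 203017_s_at read 9.16, 8.93 and 9.40 with the siRNA, against 9.00, 8.96 and 9.31 with the scrambled RNA. Probe set 203018_s_at read 8.44, 8.29 and 9.07 with the siRNA, against 8.40, 8.18 and 8.88 with the scrambled RNA. For 203016_s_at alone of the SSX2IP probe sets, the siRNA arrays all lay above the scrambled arrays, as for 2.07% of all probe sets. Its lowest siRNA array and highest scrambled array, both of experiment 2, differed by only 0.0007. Probe set 210871_x_at read 8.24, 8.08 and 8.93 with the siRNA, against 8.22, 8.08 and 8.97 with the scrambled RNA. Probe set 203015_s_at read 8.27, 8.09 and 8.47 with the siRNA, against 8.28, 8.13 and 8.13 with the scrambled RNA. Probe set 203019_x_at read 7.90, 7.65 and 8.59 with the siRNA, against 7.78, 7.65 and 8.57 with the scrambled RNA. In these last 3 the groups overlapped. Under ATRA, 5 of the 6, all readings of 1 gene, had all 4 ATRA arrays above both DMSO arrays, against 11.1% of all probe sets. Probe set 203019_x_at averaged 7.84 and 8.58 in the ATRA experiments, against 7.65 under DMSO (limma, difference 0.56, SE 0.43, adjusted p = 0.995). Probe sets 210871_x_at and 203018_s_at averaged 8.23 and 8.95, against 8.08, and 8.42 and 8.97, against 8.23. Probe set 203015_s_at averaged 8.28 and 8.30, against 8.11. Experiment 1 exceeded DMSO by 0.05 to 0.19 and experiment 3 by 0.04 to 0.93, so the probe sets of this gene agree in sign and differ in size. Among the CTAGE probe sets, lymphoma-associated antigens on autosomes, 1 of 4 was bright. CTAGE11P, dim, had 4.55 and 4.56 under ATRA, against 4.40 under DMSO. SPANXA2-OT1 was dim at 3.97.

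Other gene lists were read beside the antigens. Of all 54613 probe sets, 28481 were higher with the siRNA and 24970 under ATRA. A difference given for a gene of these lists is that of its probe set of smallest p in fits without the block. Dim describes that probe set, since other probe sets of the gene can be bright. Of other cancer-testis genes, 43 of 49 were measured by 69 probe sets, of which 33 were bright, and 0 passed any of the 3 tests. With the siRNA 35 were higher and 34 lower (median 0.01), and under ATRA 35 were higher and 34 lower (median 0.01). Their smallest p values with the siRNA belonged to TSGA10 (difference 0.15, dim) and TEX14 (-0.21, dim), a protein of germ cell bridges, and under ATRA to the RNA-binding protein IGF2BP3 (0.37, dim) and the meiotic protein HORMAD1 (0.16, dim). For the dependence of the siRNA difference on ATRA they were the helicases DDX43 (0.26) and DDX53 (0.51), both dim. Of MAGE proteins outside the antigen subfamilies, 10 of 13 genes had 15 probe sets, and 0 passed. With the siRNA 7 were higher and 8 lower, led by probe sets of TRO (-0.10 and -0.11, both dim). Under ATRA 6 were higher and 9 lower, led by TRO (-0.15, dim) and MAGEL2 (-0.13, dim). For the dependence on ATRA the smallest p belonged to TRO (-0.35, dim) and MAGEE1 (0.28).

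Genes of DNA methylation and chromatin silencing act on germline promoters. Of these, 34 of 35 were measured by 82 probe sets, 66 of them bright, and 0 passed any test. With the siRNA 49 were higher and 33 lower, against 28481 of all 54613 probe sets higher. The median was 0.03, against 0.00 over all probe sets. Under ATRA 50 were higher and 32 lower, against 24970 of all 54613 probe sets higher. The median was 0.06, against -0.01 over all probe sets. Several of the 82 probe sets read the same gene, so these counts are not of separate genes. The smallest p values with the siRNA belonged to TET3 (-0.16, dim) and EED (0.25, dim). Under ATRA they belonged to EED (0.77, dim) and TET1 (0.55). TET enzymes oxidise methylated cytosine, and EED is a subunit of the Polycomb complex that methylates histone H3. The EED probe set was dim and averaged 5.21 and 5.40 in the ATRA experiments, against 4.53 under DMSO (limma, adjusted p = 0.995). The TET1 probe set averaged 6.93 and 7.33, against 6.58 (limma, adjusted p = 0.995). For the dependence on ATRA the smallest p belonged to the Polycomb subunit SUZ12 (0.30, dim) and the methyl-CpG binding family member MBD3 (0.29).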

How the data were processed

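RNA of K562 cells was profiled on 6 Affymetrix HG-U133 Plus 2.0 arrays. The deposited values are log2 expression, which the authors made by RMA with the BRB Array Tools package according to GEO's design text. Its version and settings: not given in the sources used here. From 54675 probe sets, 71 members were selected through the platform annotation, and 62 control probe sets were left out. Of 75 symbols, 73 matched the RefSeq gene table, with 0 updated. Members and lists were chosen with earlier results of these data known.

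All 54613 probe sets were fitted with limma 3.58.1 in R 4.3.3 (lmFit and trended eBayes). P-values were adjusted by Benjamini-Hochberg across all probe sets, with a threshold of 0.05. The siRNA test had treatment as covariate and 3 residual degrees of freedom, the ATRA test 1, and the dependence of the siRNA difference on ATRA, from a fit of 4 groups, 2; there, a DMSO group holds 1 array, whose spread is taken from the ATRA groups. The tests were checked on simulated data. The labels call the experiments independent. Deviations from group means correlated at 0.703, 0.772 and 0.879 within experiments. Between experiments 1 and 2 they correlated at 0.530 and 0.594, and between experiment 3 and the others at -0.785 to -0.693. Treatment was not removed from these deviations. The numbers were taken to pair the arrays, and the replicate block is given. Values by array or experiment are given for the 30 brightest members and the 3 of smallest p on each side of each comparison, in fits without the block. The number of arrays limits the precision. Alternatives covered pairing, left-out arrays, scaling, dim probe sets, probe sets per gene and the variance model. The probes themselves and protein sequences were not used here.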

Additional observations from a re-analysis of the deposited data

How the results depend on the processing

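Across the settings tried, 0 members passed in the siRNA comparison and in its dependence on ATRA, with and without the replicate block, which changed no member's call. It moved the count over all probe sets at an unadjusted p under 0.05 to 2878, against 657 without it, and the count past the adjusted threshold to 1, against 0. With the replicate block and 1 probe set per gene, 5 of 19775 genes passed, and 33 members were tested. For ATRA against DMSO with all experiments, 0 probe sets passed on experiment means, 2 with a random block and 1 with no block. Leaving out an ATRA experiment leaves 1 experiment in each arm, so single arrays stand in as replicates and the p-values hold the spread within experiments only. That fit of another form gave 0 to 15 members past the threshold. Over all probe sets it gave 13872 without experiment 1 and 97 without experiment 3. Without experiment 1 the SSX2IP probe set 203019_x_at stood at 0.93 (limma, within-experiment spread, adjusted p = 4.82e-04). The cause was not tested. Without experiment 1 or 3, the dependence of the siRNA difference on ATRA has values and no test.

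The counts of direction were taken with settings chosen after seeing the data. For lower values under ATRA they ran from 33 to 46 of 60 antigens, while the share of all probe sets ran from 29.4% to 54.0%. For lower values with the siRNA in each experiment used they ran from 14 to 26, while that share ran from 11.3% to 23.9%. Fewer experiments make the criterion easier to meet. Dim signals, of which the antigens held 22, may lie at background, and _x_at probe sets may bind other transcripts. Bright signals near the median of all probe sets may lie at background too, since no detection call was made.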
